A study of Mus musculus with 2 samples.

Results

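Gm25301, Gm25927, Gm24083, Mir497b and Gm24111 are 5 annotated miRNA genes of the mouse whose reads came from the opposite DNA strand, where Mir378a, Mirlet7e, Mir191, Mir497 and Mirlet7f-1 lie. The 5 were chosen by gene symbol for these opposite-strand reads, out of 1973 miRNA genes in the count tables. The tables come from small RNA under 30 nt, sequenced from the stomachs of 2 newborn mice (postnatal day 0, strain B6NCrl, sex not collected). Pup 1 and pup 2 were born to 1 dam and form 1 group, with no contrast between conditions. Values below are given for pup 1 and pup 2 as 2 biological replicates, and they describe whole stomach tissue, in which fewer cells of a type and less RNA per cell cannot be told apart.

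A miRNA is cut from a hairpin in a longer primary transcript, first in the nucleus and then in the cytoplasm, and 1 arm of the hairpin guides the silencing of messenger RNAs. Which messages it binds depends mainly on its seed, bases 2 to 8 from the 5′ end. A hairpin's DNA, read on the other strand, often folds as well, so an annotation can place a miRNA gene on either strand of a locus. Mir378a sits within Ppargc1b, the gene of a coactivator of mitochondrial metabolism, and is linked to energy metabolism. Mirlet7e and Mirlet7f-1 belong to the let-7 family, which restrains proliferation and promotes differentiation. Mir497 belongs to the miR-15/16 family of cell-cycle repressors, and Mir191 is transcribed together with Mir425.

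Of the 5 opposing genes, 4 had mature sequences in the RefSeq set (GRCm38.p6) used here. They are shown for their seeds, together with the most abundant family gene or the neighbour on the same strand. The seed is in capitals.
mmu-let-7e-5p: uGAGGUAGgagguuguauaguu
mmu-let-7f-5p: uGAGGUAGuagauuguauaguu
mmu-let-7g-5p: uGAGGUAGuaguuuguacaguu
mmu-miR-497a-5p: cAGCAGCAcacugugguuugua
mmu-miR-195a-5p: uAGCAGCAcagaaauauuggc
mmu-miR-322-5p: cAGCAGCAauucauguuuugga
mmu-miR-191-5p: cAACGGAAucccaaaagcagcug
mmu-miR-425-5p: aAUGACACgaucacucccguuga

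The let-7e and let-7f arms share the seed GAGGUAG with 13 genes in that set, themselves included, and differ from each other by G9U and G12A (base of let-7e first, positions counted from 1 at its 5′ end). The miR-497a arm has the seed AGCAGCA, found in 11 genes. The family lists used below were fixed by gene name and differ from these seed groups. Mir6342, Mir6353, Mir6419, Mir1961 and Mir7k carry these seeds but are not in the lists under these symbols. Mirlet7a-2 is in the let-7 list but not among the 13 genes, which were counted from the mature entries of that set. Its hairpin shares at least 20 nt with that of Mirlet7a-1, which is among them. Its absence therefore does not show that it lacks the seed. The seed AACGGAA of miR-191 was found in 1 gene, Mir191 itself, among 1738 mature entries, so Mir191 and Mir425 are neighbours that do not share a seed.

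In GENCODE M21 (GRCm38), each counted gene enclosed the whole hairpin of its opposing gene. Gm25927 (minus strand of chromosome 17, 17830343 to 17830459) encloses Mirlet7e (17830352 to 17830444), which lies in an intron of Spaca6. Gm24083 (minus strand of chromosome 9, 108568295 to 108568414) encloses Mir191 (108568319 to 108568392), which overlaps an exon of the long non-coding RNA 4833445I07Rik. Mir497b (minus strand of chromosome 11, 70234692 to 70234816) encloses Mir497 (70234717 to 70234800), for which no host gene on either strand was found. Gm24111 (plus strand of chromosome 13, 48537825 to 48537921) encloses Mirlet7f-1 (48537829 to 48537917), which overlaps an exon of the long non-coding RNA 6720427I07Rik.

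The pairs at Mirlet7e and Mir497 are printed to show how a read of either arm falls on the opposite strand of the counted gene. In the hairpins of Mirlet7e and Mir497 the capitals mark the mature arms. In Gm25927 and Mir497b they mark the stretch that is the reverse complement of the opposing hairpin. The sequences are those of the M21 transcripts, written as DNA on each gene's own strand.
Mirlet7e: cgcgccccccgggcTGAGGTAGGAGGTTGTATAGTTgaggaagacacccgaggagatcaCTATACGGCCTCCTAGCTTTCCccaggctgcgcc
Gm25927: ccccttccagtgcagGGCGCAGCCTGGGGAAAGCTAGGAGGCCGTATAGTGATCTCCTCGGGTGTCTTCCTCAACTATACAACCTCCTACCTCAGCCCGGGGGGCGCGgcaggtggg
Mir497: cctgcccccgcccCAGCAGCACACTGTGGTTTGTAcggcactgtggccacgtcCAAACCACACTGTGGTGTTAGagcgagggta
Mir497b: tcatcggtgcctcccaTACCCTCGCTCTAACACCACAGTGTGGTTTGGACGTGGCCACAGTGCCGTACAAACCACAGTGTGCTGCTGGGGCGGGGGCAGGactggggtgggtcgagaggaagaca

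The reverse complement of the opposing hairpin was found whole in all 5 counted genes, at positions 16 to 108 of the 117 nt of Gm25927 and 17 to 100 of the 125 nt of Mir497b. Folding energies were computed for both strands, with no other sequences for comparison. They therefore do not tell whether a strand folds better than any RNA of its length. RNAfold gave minimum free energies of -49.4 kcal/mol for Gm25927 and -45.3 kcal/mol for Mirlet7e, and of -57.8 kcal/mol for Mir497b and -41.5 kcal/mol for Mir497. Per 100 nt, the counted gene came out at -58.1 for Gm25301, -42.2 for Gm25927, -48.8 for Gm24083, -46.2 for Mir497b and -31.9 kcal/mol for Gm24111. The opposing hairpins lay between -47.3 for Mir191 and -58.3 kcal/mol for Mir378a, so the widest gap was that of Gm24111 against the -48.4 kcal/mol of Mirlet7f-1. The counted genes were 97 to 125 nt long, against a median annotated length of 90 nt over 1894 matched genes, of which 41.2% reached 97 nt.

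Counts assigned to genes without regard to strand totalled 4566457 in pup 1 and 3530669 in pup 2. Of these, 2.26% (exact 95% interval 2.24% to 2.27%) and 2.15% (2.14% to 2.17%) fell on the strand opposite to the gene. The marker genes of the labelled tissue were present, with summed levels in counts per 1000000 of these counts (CPM) of 250327 and 233867 for the smooth muscle genes Mir143 and Mir145a, and of 107365 and 112049 for the squamous epithelial genes Mir203 and Mir205. Genes of epithelium in general (57074 and 61397 CPM), glandular epithelial (5920 to 6774 CPM) and endocrine (7000 to 7507 CPM) genes were detected too. Among markers of other cell types, those of blood summed to 483 to 509 CPM, liver to 201 to 250 CPM and striated muscle to 95.3 to 259 CPM. Single genes made up most of some sums. As means over the pups, Mir143 had 236519 CPM and Mir145a 5578 CPM. In blood, Mir223 had 460 CPM, Mir451a 19.6 CPM and Mir144 16.8 CPM. None of the 3 pancreatic acinar genes reached 10 counts in both pups, at a sum of 2.55 to 2.63 CPM. Intervals and floors reflect counting error only, as the reads carry no molecular identifiers and PCR copies of a molecule count separately.

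The 5 genes, chosen for their opposite-strand reads, held most of what the tables count on that strand. Together they had 72812 of 103102 opposite-strand counts in pup 1, or 70.6% (exact 95% interval 70.3% to 70.9%), and 53283 of 76014 in pup 2, or 70.1% (69.8% to 70.4%). That was 1.59% and 1.51% of all gene counts. A strand-aware count leaves these reads without a gene. In the own-strand column, 231402 and 170247 reads were assigned to no gene, and the opposite-strand counts of the 5 genes amounted to 31.5% and 31.3% of them.

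On their own strand the 5 genes had almost no counts. Gm25301, Gm25927, Gm24083 and Gm24111 had 0 own-strand counts in both pups, which allows a level of up to 0.657 CPM in pup 1 and 0.850 CPM in pup 2. Mir497b, for which RefSeq lists a mature miRNA on its own strand, had 0 and 1 own-strand counts. The opposite-strand share of each gene was therefore 100% in both pups, except for 99.97% at Mir497b in pup 2. These are the values by which the genes were chosen, so they carry no test.

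**Figure D1:**
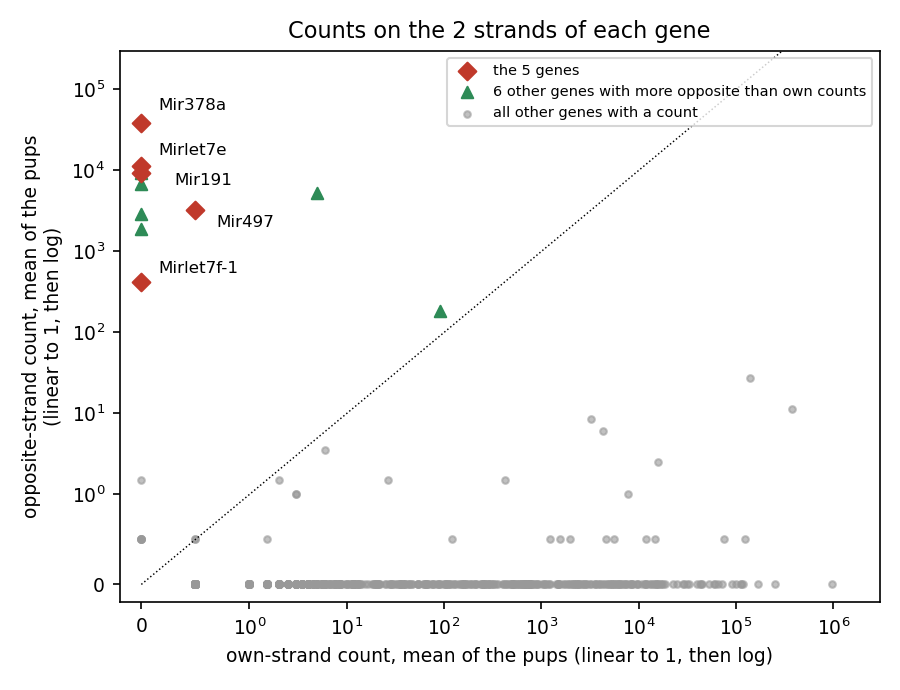
Opposite-strand count (vertical axis) against own-strand count (horizontal axis) of each miRNA gene with a count, as the mean of the 2 pups, on axes that are linear up to 1 and logarithmic above. The 5 genes, labelled by the miRNA gene that lies opposite, sit at the left edge with 0 or nearly 0 own-strand counts. A further 6 genes with at least 10 opposite-strand counts in each pup lie above the dotted line of equal counts, and the rest have few opposite-strand counts.

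Such a strand bias was rare among miRNA genes. Counts of at least 10 in each pup on the opposite strand, exceeding the own-strand counts in both, were found for 11 of 1973 genes (0.558%), or 3.49% of the 315 genes with at least 10 counts on both strands together in each pup. The other 6 lie opposite Mir376a, Mir409, Mir299a and Mir380 on chromosome 12, Mir142 on chromosome 11 and Mir24-1 on chromosome 13, and held 30214 and 22653 opposite-strand counts. Those opposite Mir376a, Mir409, Mir380 and Mir142 also had an opposite-strand share of 100% in both pups. Mean levels opposite Mir376a (2322 CPM), Mir409 (1678 CPM) and Mir299a (1289 CPM) exceeded that of Mir497 (804 CPM). Levels opposite Mir380, Mir142 and Mir24-1 lay below it. Outside the 11 genes, 76 and 78 opposite-strand counts remained in all. Of 310 genes other than the 5 with at least 10 counts in each pup, 286 had 0 opposite-strand counts in both. In M21, 32 pairs of miRNA genes overlapped on opposite strands with a gene of the tables in the pair, and 1 gene of each pair was counted. In 12 of these pairs the counted gene had at least 10 opposite-strand counts in each pup, and they include all 11 genes. The identifiers of all 5 opposing genes carry a higher number than any identifier in the tables.

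Each value below is thus the opposite-strand count of the gene named by its opposing miRNA gene, by position and strand alone. The counts tell neither which arm a read came from nor whether it lay in the flanks of 4 to 25 nt by which the counted gene exceeds the hairpin. A read spans a whole small RNA, so levels were not divided by gene length.

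Mir378a was the most abundant of the 5. It occupies 61397835 to 61397900 of chromosome 18 (minus strand), in an intron of Ppargc1b, and Gm25301 spans 61397813 to 61397925 on the plus strand. It had 46914 counts in pup 1 and 30346 in pup 2, which is 10274 and 8595 CPM, or 9434 ± 1187 CPM (SD, n = 2). It alone made up 45.5% and 39.9% of all opposite-strand counts. Among 318 features with at least 10 counts in each pup (a feature being a gene on 1 of its strands), it held place 22. Mirlet7d, directly above at 9717 ± 92.2 CPM, differed from it by less than the spread between pups, and Mir99b, directly below at 8085 ± 86.8 CPM, by more.

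Mirlet7e came next. It had 11777 counts in pup 1 and 10969 in pup 2, or 2579 and 3107 CPM, a mean of 2843 ± 373 CPM at place 48. Its neighbours in the ranking, Mir106b (2889 ± 77.2 CPM) and Mir151 (2817 ± 234 CPM), lay within its spread. Mir378a exceeded Mirlet7e 3.98-fold in pup 1 and 2.77-fold in pup 2.

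Mir191 had 10125 and 8638 counts, or 2217 and 2447 CPM, a mean of 2332 ± 162 CPM at place 54. It did not differ beyond its spread from Mirlet7f-2 above (2381 ± 48.2 CPM) or from the opposite-strand counts of Gm25252 below (2322 ± 7.93 CPM). Mirlet7e exceeded Mir191 in both pups, by 1.16-fold and 1.27-fold.

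Mir497 had 3540 and 2942 counts, or 775 and 833 CPM, a mean of 804 ± 41.0 CPM at place 97. The genes on either side, Mir337 (807 ± 1.16 CPM) and the hypoxia-induced Mir210 (797 ± 3.12 CPM), lay within its spread. Mir191 exceeded Mir497 2.86-fold in pup 1 and 2.94-fold in pup 2, a ratio almost equal in both.

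Mirlet7f-1 was the least abundant, with 456 and 388 counts, or 99.9 and 109.9 CPM, a mean of 105 ± 7.10 CPM at place 184. Mir135b above (107 ± 14.5 CPM) and Mir338 below (104 ± 8.03 CPM) did not differ from it beyond the spread. Mir378a exceeded it 103-fold and 78.2-fold. In all 10 pairs among the 5 genes the mean log2 ratio exceeded the SD of the 2 pups, and the order of the 5 was the same in both. The smallest p that an exact permutation of 2 libraries allows is 0.5, so the pairs carry no test.

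**Figure D2:**
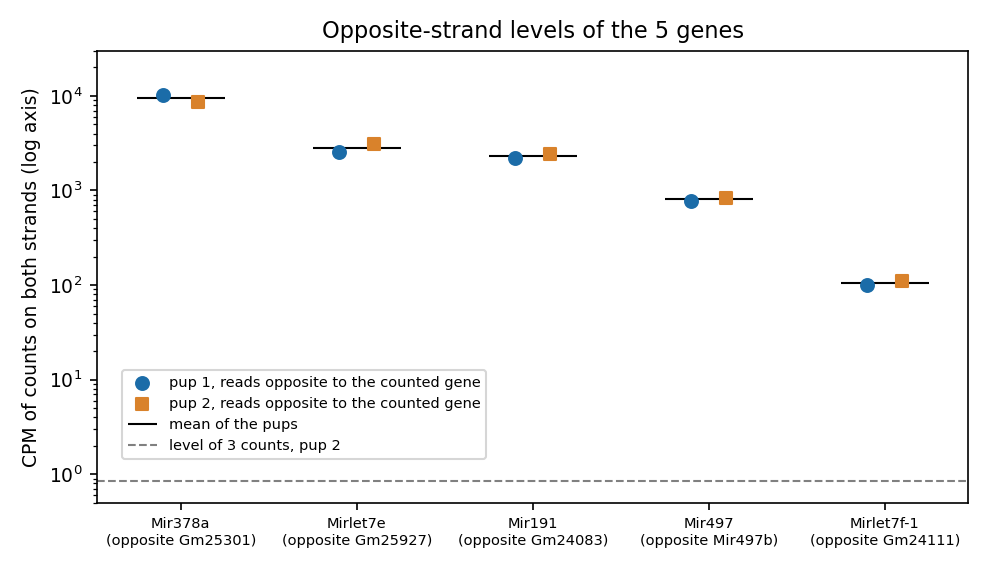
Opposite-strand level of the 5 genes in pup 1 (circles) and pup 2 (squares), in CPM on a log axis, with the mean as a bar. Levels run from 9434 CPM for Mir378a to 105 CPM for Mirlet7f-1, all well above the dashed level of 3 counts.

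**Figure D3:**
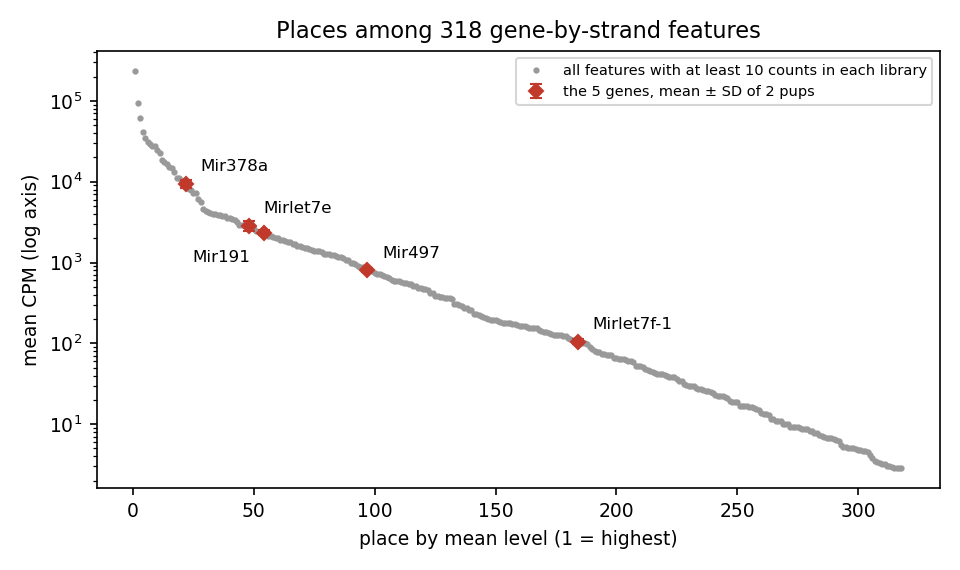
Mean CPM (log axis) of 318 gene-by-strand features against their place, with the 5 genes as diamonds (mean ± SD of 2 pups). Mir378a stands at place 22, Mirlet7e and Mir191 at 48 and 54, Mir497 at 97 and Mirlet7f-1 at 184.

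Mirlet7f-1 and Mir378a share sequence with other hairpins, which bears on their counts. The let-7f-5p arm of 22 nt occurs whole in the hairpin of Mirlet7f-2 as well, and its reads can fall among those with several mapping positions, which were 26.0% (pup 1) and 25.7% (pup 2) of the reads. The other arm, let-7f-1-3p, was found whole in no other annotated hairpin. The level of Mirlet7f-1 can therefore be understated. The hairpin of Mir378a shares a stretch of 20 nt with that of Mir378c. Those of Mirlet7e, Mir191 and Mir497 share no stretch of 20 nt with a hairpin elsewhere, on either strand.

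Beside their neighbours on the same strand, the genes stood both above and below. Mirlet7e lies between Mir99b (94 nt away) and Mir125a (367 nt away), and the 3 form a conserved cluster. Mir99b reached 8085 ± 86.8 CPM and Mir125a 2393 ± 288 CPM. The log2 ratio of Mirlet7e to Mir99b was -1.66 in pup 1 and -1.37 in pup 2 (-1.51 ± 0.21), so that Mir99b was 2.86-fold higher. Over Mir125a, a counterpart of the worm developmental miRNA lin-4, the log2 ratio was 0.24 and 0.26 (0.25 ± 0.016), a 1.19-fold excess of Mirlet7e that was nearly the same in both pups.

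Mir191 exceeded Mir425, 384 nt away on the same strand, by a log2 ratio of 0.83 in pup 1 and 0.70 in pup 2 (0.76 ± 0.089). Mir425 stood at 1379 ± 181 CPM, and Mir191 held 62.9% ± 1.44 of the counts of the pair. Mir497 lay below Mir195a, its partner 241 nt away, which reached 1279 ± 0.423 CPM. The log2 ratio of Mir497 to Mir195a was -0.72 and -0.62 (-0.67 ± 0.074), a 1.59-fold higher level of Mir195a.

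Mirlet7f-1 lies 261 nt from Mirlet7a-1 and 1714 nt from Mirlet7d. Its level was close to that of Mirlet7a-1 (117 ± 8.97 CPM), with a log2 ratio of -0.15 in pup 1 and -0.17 in pup 2. Mirlet7d exceeded it 92.8-fold, by a log2 ratio of -6.54 ± 0.11 for Mirlet7f-1 over Mirlet7d. Mirlet7a-1, like Mirlet7f-1, shares a stretch of at least 20 nt with other hairpins, and Mirlet7d shares none.

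**Figure D4:**
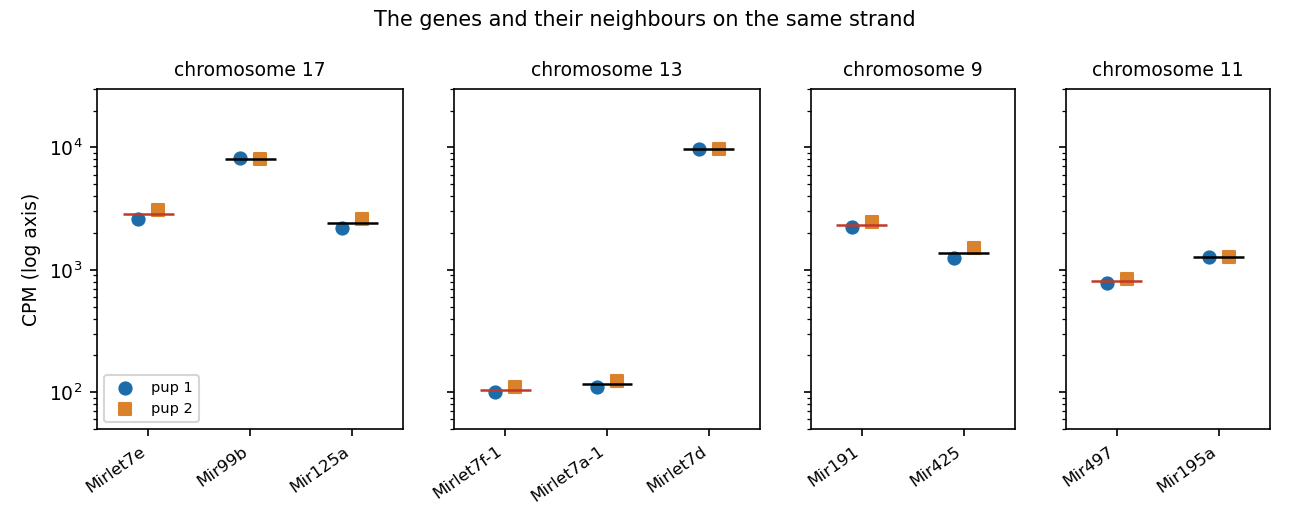
CPM (log axis) of Mirlet7e, Mirlet7f-1, Mir191 and Mir497 (red bars, opposite-strand counts) and of the neighbouring miRNA genes on the same strand (black bars, own-strand counts), in pup 1 (circles) and pup 2 (squares). Mirlet7e lies under Mir99b and slightly over Mir125a, Mirlet7f-1 beside Mirlet7a-1 and far under Mirlet7d, Mir191 over Mir425, and Mir497 under Mir195a.

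Set among the genes of its family, each of the 4 with relatives took a different place. Mir378a held 99.9% ± 0.00873 of the counts of the miR-378 genes, as Mir378b, Mir378c and Mir378d had 4, 21 and 21 counts in pup 1 and 2, 7 and 17 in pup 2. Mir378a and Mir378c share a stretch of 20 nt, so the counts of both can be understated and the share holds within that limit. The let-7 family summed to 93302 CPM in pup 1 and 92832 CPM in pup 2 over 12 analysed genes. Of this sum Mirlet7e held 2.76% in pup 1 and 3.35% in pup 2, and Mirlet7f-1 0.107% and 0.118%.

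By these counts Mirlet7e was 6th of the 12 analysed let-7 genes. Mirlet7g (41080 ± 1943 CPM), Mirlet7i (27915 ± 548 CPM), Mirlet7d, Mir98 (4560 ± 27.0 CPM) and Mirlet7b (4005 ± 676 CPM) stood above it. Mirlet7f-2 followed at 2381 ± 48.2 CPM, and both it and Mirlet7b differed from Mirlet7e by more than the spread between pups. Mirlet7f-1 was 11th, under Mirlet7a-1 and above Mirlet7a-2 (89.8 ± 17.6 CPM), from which it did not differ beyond the spread. Mirlet7a-1, Mirlet7a-2, Mirlet7c-1, Mirlet7c-2, Mirlet7f-1 and Mirlet7f-2 each share at least 20 nt with another hairpin, so their counts can be understated and both places and shares hold within that limit. Without them Mirlet7e held 3.16% of the family as a mean over the pups.

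Mir497 was 5th of the 8 listed genes of the miR-15/16 family, with 4.58% of their counts in pup 1 and 4.95% in pup 2. Mir322 led the family at 10513 ± 652 CPM, followed by Mir15a (1672 ± 237 CPM), Mir16-1 (1458 ± 181 CPM) and Mir195a. Mir15b, just below Mir497 at 788 ± 60.5 CPM, did not differ from it beyond the spread. Mir16-2 stood at 370.4 ± 59.3 CPM, and Mir195b had 0 counts in both pups. Mir16-1 and Mir16-2 share a stretch of 23 nt with each other, and without these genes the share of Mir497 was 5.35% as a mean over the pups.

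Between the littermates, none of the 5 genes passed the call for a difference. Over 318 features, the two-sided exact binomial test on TMM-scaled libraries, with Benjamini-Hochberg adjustment, called 10 (3.14%), where a call needed both an adjusted p below 0.05 and at least a 1.5-fold ratio. Of these, 2 (0.629%) were higher in pup 1 and 8 (2.52%) in pup 2, and 0 of the 5 genes were among them. The striated muscle marker Mir206 was, with 435 counts in pup 1 and 914 in pup 2 (log2 ratio -1.34, adjusted p = 1.5e-60 in the exact binomial test), and its part in the ratios of the 5 genes was not tested. The split of the calls depended on the scaling, as DESeq2 size factors gave 5 higher in pup 1 and 6 in pup 2. What is compared are these libraries, with counting error as the sole error. Over all features the median log2 ratio (pup 1 over pup 2) came to -0.13 with plain totals and to -0.02 after TMM scaling, to which the ratios below refer.

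Mir378a had the widest difference of the 5, with a log2 ratio of pup 1 over pup 2 of 0.36 (exact 95% interval 0.34 to 0.38). Mirlet7e went the other way, at -0.17 (-0.20 to -0.13). Their adjusted p of 7.27e-252 and 1.89e-17 in the binomial test fell under 0.05, as did those of 165 of 318 features (51.9%) whatever the ratio. In edgeR's likelihood-ratio test, where the error was a common dispersion (a coefficient of variation of 11.4% between pups), the adjusted p was 0.96 for both. That dispersion was estimated from the same 2 libraries, which sets the difference against itself, and the value is no sign that the pups were alike.

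Mir191 (-0.04, interval -0.08 to 0.0011), Mir497 (-0.0027, -0.074 to 0.068) and Mirlet7f-1 (-0.037, -0.24 to 0.16) had intervals that include 0, with adjusted p of 0.098, 0.97 and 0.83 in the same binomial test. The sign for Mir497 changed with the scaling. With plain totals, the adjusted p was 9.02e-11 for Mir191 (log2 ratio -0.14) and 0.0097 for Mir497 (-0.10), still under the ratio for a call. Among the neighbours of Mirlet7e, Mir125a had a log2 ratio of -0.14 and Mir99b of 0.12, and those of Mir425 and Mir195a were -0.17 and 0.10. The ratios of Mirlet7a-1 and Mirlet7d were -0.055 and 0.12. These differences between neighbours were not tested.

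**Figure D5:**
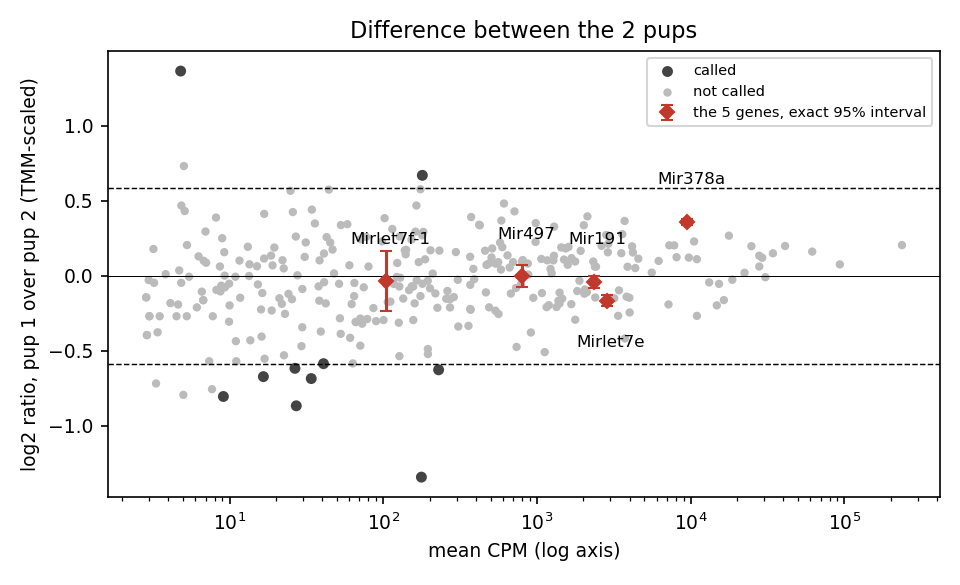
Log2 ratio of pup 1 over pup 2 after TMM scaling against mean CPM (log axis) for 318 gene-by-strand features. Dashed lines mark a ratio of 1.5 in either direction, dark points the 10 features called, and diamonds the 5 genes with exact 95% intervals. The ratios of the 5 genes lie between -0.17 for Mirlet7e and 0.36 for Mir378a, and their intervals stay within the lines.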

How the data were processed

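Per the labels, the libraries hold RNA under 30 nt. The authors deposited raw read counts per miRNA gene for each library, 1 count without regard to strand and 1 per strand. The description files name mm10 as the assembly and M4 as the annotation release. Neither aligner nor counting tool is stated in the sources at hand. The strand column with the smaller total was read as opposite-strand, and CPM use the unstranded gene total, without reads that name no gene. Of 1973 identifiers, 1894 matched GENCODE M21 without their version. Detection required 10 counts in each library, and the floor is 3 counts. Features were compared between pups by two-sided exact binomial tests on edgeR 4.0.16 TMM sizes. The tests were run on simulated counts with counting noise only, the error they assume. That check therefore does not cover spread between pups beyond counting error. DESeq2 1.42.0 size factors and edgeR's likelihood-ratio test were alternatives. R 4.3.3, Python 3.11.15, scipy 1.17.1 and RNAfold 2.7.2 were used. Stretches of 20 nt were searched in all M21 hairpins at other loci, on both strands. The chi-square of the counts between pups was 19548 over 317 degrees of freedom, so they are not 1 library deposited again.

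The genes, their cluster partners, the family lists and the tissue markers were chosen with earlier results of these data known. Named besides them are the features directly above and below each gene in the ranking and every other gene read mainly on the opposite strand. Mirlet7j and Mirlet7k, also in the let-7 list, were not analysed here.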

Additional observations from a re-analysis of the deposited data

How the results depend on the processing

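Of 43 alternative values with another scaling, minimum, test, denominator or gene set, 37 kept their direction and call, or stayed within the spread between pups. The 40 values from a single pup are those given per pup, which with 2 pups lie within 1 SD of the mean by construction. The 11 values that add the other strand barely differ, as it holds almost no counts, and neither kind bears on stability. The number of features called between pups was 10 with TMM scaling (2 higher in pup 1 and 8 in pup 2) and 16 with plain totals (1 and 15). It was 11 with DESeq2 size factors (5 and 6) and 10 of 695 with no count minimum (5 and 5). With a minimum of 100 counts it was 6 of 233 (1 and 5). The excess of calls higher in pup 2 thus depended on the scaling and the minimum. With edgeR's common dispersion, which comes from the same libraries, 1 was called and 17 had an unadjusted p under 0.05. In each of these 0 of the 5 genes were called. The log2 ratio of Mir497, -0.0027 with TMM scaling, was 0.0223 with DESeq2 size factors and 0.0219 with no count minimum. The counts of Mir497 are the same in each, and only the effective library sizes differ. The log2 ratio of Mir378a ranged from 0.26 to 0.38 and that of Mirlet7e from -0.27 to -0.14 over the scalings and minimums. The share of the miR-15/16 family held by Mir497 was 5.35% without Mir16-1 and Mir16-2, against 4.76%, as the sum then holds fewer genes. Mir378a shares a stretch with Mir378c, so its family share has no value without sequence-sharing genes. Leaving out a pup leaves no comparison between pups. No paired analysis was possible because the 2 libraries form 1 group. With 2 pups, depth limits Mirlet7f-1 most, at 456 and 388 counts.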
